A study of Homo sapiens with 29 samples.

Results

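The UGT2B androgen glucuronidation enzymes were followed as 6 genes of one family, UGT2B7, UGT2B10, UGT2B11, UGT2B15, UGT2B17 and UGT2B28, taken by symbol from the 63677 gene features counted in each of the deposited tables. RNA was sequenced from 29 libraries of a pair of human prostate cancer cell lines: 22Rv1, which was derived from a relapsed xenograft, and C4-2, which descends from LNCaP and grows after castration. C4-2 cells, kept in medium containing hormones, formed 8 groups of 3 libraries: an untreated control (Ctrl), the DNA-PK inhibitor NU7441, CC-115, which the labels place under DNA-PK inhibition, the TOR kinase inhibitor CC-223, the antiandrogen enzalutamide (Enza), and each inhibitor together with Enza. Every compound was given at 1 µM for 24 h. 22Rv1 cells formed a Control group of 3 libraries and a CC-115 group of 2 libraries, also 1 µM for 24 h. The labels do not say whether libraries of a group came from separate cultures, so p-values measure only the spread between these libraries.

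UDP-glucuronosyltransferases sit in the endoplasmic reticulum membrane and transfer glucuronic acid from UDP-glucuronic acid onto small lipophilic molecules, which makes them water soluble and ready for export. UGT2B15 and UGT2B17 are the main enzymes that conjugate testosterone, dihydrotestosterone and their metabolites in the prostate, and the glucuronides are no longer active as androgens. In LNCaP cells androgen is known to lower the transcripts of UGT2B15 and UGT2B17. UGT2B28 also conjugates steroids, UGT2B7 acts on morphine, oestrogens and many drugs, UGT2B10 forms N-glucuronides of amines such as nicotine, and the substrates of UGT2B11 are poorly known.

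All 6 members lay on chromosome 4 of hg19, the build of the count tables. From low to high coordinate, UGT2B17 (ENSG00000197888) occupied chr4:69402902-69434245 on the minus strand and UGT2B15 (ENSG00000196620) chr4:69512348-69536346 on the minus strand. UGT2B10 (ENSG00000109181) lay at chr4:69681711-69696914 on the plus strand and UGT2B7 (ENSG00000171234) at chr4:69917081-69978705 on the plus strand. UGT2B11 (ENSG00000213759) lay at chr4:70065669-70080449 on the minus strand and UGT2B28 (ENSG00000135226) at chr4:70146217-70160768 on the plus strand. The counted exon lengths ran from 1833 bases (UGT2B28) to 2340 bases (UGT2B11). An antisense feature overlapped UGT2B11 by 418 bases, but it held 32 reads over all 29 libraries.

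The members share sequence, which limits how well reads can be told apart. The first 150 coding bases of UGT2B15 and UGT2B17, read from the GENCODE 29 transcripts, are shown because these copies carried most of the family's reads in C4-2 cells and held the longest identical run of any pair of members. Capitals mark the 5 bases at which they differ.
UGT2B15: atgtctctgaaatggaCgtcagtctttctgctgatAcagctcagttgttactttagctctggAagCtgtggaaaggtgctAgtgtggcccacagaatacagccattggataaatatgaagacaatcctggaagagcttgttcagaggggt
UGT2B17: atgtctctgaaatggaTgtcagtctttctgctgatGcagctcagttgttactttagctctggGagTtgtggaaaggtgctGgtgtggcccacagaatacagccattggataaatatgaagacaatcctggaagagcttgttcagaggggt

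Over the whole coding sequence UGT2B15 and UGT2B17 were 96.5% identical, with 55 differences in 1590 aligned columns and a longest identical run of 199 bases. UGT2B11 and UGT2B28 were 97.0% identical, UGT2B10 and UGT2B11 94.8%, and UGT2B15 or UGT2B17 against the other members 84.0 to 85.4%. Of the 75-base windows of each member, 18.4% in UGT2B15 and in UGT2B17, 18.5% in UGT2B11, 17.2% in UGT2B10, 15.2% in UGT2B28 and 2.3% in UGT2B7 also occurred in another UGT2 gene. Sharing was larger for 50-base windows, at 40.9% in UGT2B11, 35.7% in UGT2B28, 31.7% in UGT2B10, 27.8% in UGT2B17, 27.5% in UGT2B15 and 6.7% in UGT2B7. Most of each transcript held sequence of its own at these lengths, by a margin that depends on the length. How the counting treated reads that fit several copies is not given in the sources used here. Results were therefore also computed with UGT2B15 and UGT2B17 added together and with the other 4 members added together. These sums leave out pseudogenes. Pseudogenes were the partners that shared most 75-base windows with UGT2B11 (UGT2B25P, 12.3%), UGT2B28 (UGT2B24P, 10.1%) and UGT2B10 (UGT2B27P, 6.9%). The sums therefore cannot check reads shared with those pseudogenes. The text below gives the values of the sums where a direction or a call described for a copy did not carry over to its sum.

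Promoters are shown for the member whose RNA was most abundant and for a pair of copies whose promoters were nearly the same while their levels differed. RefSeq (GRCh38.p14) entries were held for 4 of the 6 members. The UGT2B15 window, the 250 bases before the start at chr4:68670653-68670902 on the minus strand, has in capitals the AGGTCA core bound by many nuclear receptors, the forkhead motif GTAAACA and the AGAACA core of steroid hormone response elements.
UGT2B15 promoter: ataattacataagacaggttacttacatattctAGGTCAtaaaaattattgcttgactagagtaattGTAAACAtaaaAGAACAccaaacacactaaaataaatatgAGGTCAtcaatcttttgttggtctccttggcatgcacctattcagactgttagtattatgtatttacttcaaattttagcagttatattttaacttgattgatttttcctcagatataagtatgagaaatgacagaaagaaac

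Searched on both strands, AGAACA occurred in 12.4% of the 35116 RefSeq promoters of the same length, AGGTCA in 12.1% and GTAAACA in 3.0%, so these letters are common and a match is only a description. In UGT2B15 the AGGTCA copies began at −217 and −143, GTAAACA at −183 and AGAACA at −172 relative to the start. UGT2B10 and UGT2B11 each held 1 AGGTCA copy, at −210 and −214, and UGT2B7 held none of the 3 motifs. In the windows of UGT2B10 (chr4:68815744-68815993, plus strand) and UGT2B11 (chr4:69214749-69214998, minus strand), which were 90.2% identical, capitals mark the bases that differ or have no partner.
UGT2B10 promoter: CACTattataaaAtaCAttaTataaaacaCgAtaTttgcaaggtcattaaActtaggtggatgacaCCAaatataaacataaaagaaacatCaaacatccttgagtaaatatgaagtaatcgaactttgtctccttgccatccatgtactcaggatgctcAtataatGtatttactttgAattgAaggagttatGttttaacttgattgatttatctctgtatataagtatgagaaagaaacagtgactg
UGT2B11 promoter: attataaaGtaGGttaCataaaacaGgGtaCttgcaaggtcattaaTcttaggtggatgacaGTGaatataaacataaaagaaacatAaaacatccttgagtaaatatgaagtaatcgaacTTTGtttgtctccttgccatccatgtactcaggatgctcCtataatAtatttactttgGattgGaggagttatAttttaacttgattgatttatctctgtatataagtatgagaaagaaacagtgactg

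The libraries held 29580404 to 44864694 counted reads in C4-2 and 31606952 to 44912917 in 22Rv1. Within groups, the root mean square log2 deviation of a library from its group was 0.09 to 0.28 in C4-2 except for Enza 1 (0.49) and CC-115+Enza 1 (0.46), and 0.19 to 0.43 in 22Rv1. All 8 prostate luminal markers, among them KLK3, KLK2, TMPRSS2, HOXB13, KRT8 and KRT18, were detected in every group. Enzalutamide lowered the androgen-induced genes KLK3 (from 1790 to 596 CPM, log2 change −1.59 ± 0.12, adjusted p = 1.39e-10) and FKBP5 (−1.53 ± 0.14, adjusted p = 9.6e-09). CPM, the unit of levels, is a gene's count relative to the scaled total of its library (counts per 1 M), a log2 change is given ± its standard error, and a difference is called at an adjusted p below 0.05 in edgeR over all genes tested.

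UGT2B15 was the most abundant member in every group, per base of transcript. In untreated C4-2 cells the mean level per kilobase was 6.11 CPM for UGT2B15, 1.85 for UGT2B17, 1.39 for UGT2B11, 1.31 for UGT2B28, 0.128 for UGT2B10 and 0.0701 for UGT2B7. In untreated 22Rv1 cells the order was UGT2B15 (40.6), UGT2B10 (6.33), UGT2B17 (1.38), UGT2B11 (0.781), UGT2B7 (0.239) and UGT2B28 (0.104). The lines thus shared the leading enzyme but not the one that followed it. UGT2B7 did not pass the filter on low counts in C4-2 and UGT2B28 did not in 22Rv1, and UGT2B10 passed in C4-2 through the groups where it was highest. In each line 5 of the 6 members were therefore fitted, and in the comparison of lines all 6 were. Because its passing depended on the high groups, UGT2B10 in C4-2 is described by its reads and fitted values with no test, and counts and medians for C4-2 cover UGT2B11, UGT2B15, UGT2B17 and UGT2B28.

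**Figure D1:**
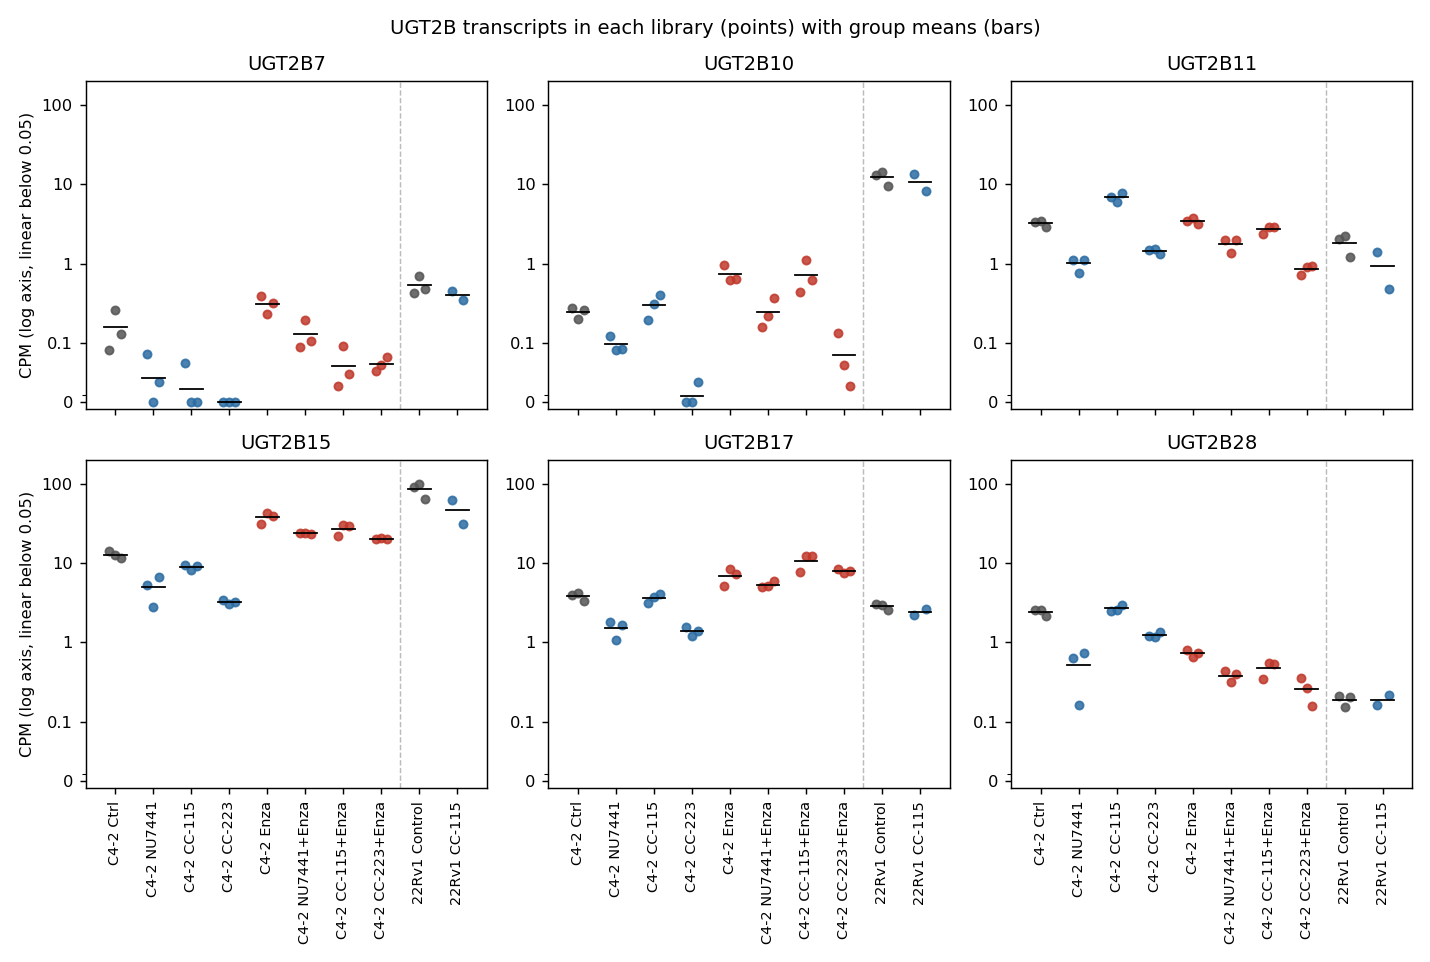
Level of each of the 6 members (CPM, log axis, linear below 0.05) in each of the 29 libraries, with points for libraries and bars for group means. UGT2B15 lay between 11.5 and 14.1 CPM in the C4-2 Ctrl libraries, between 31.1 and 42.0 with Enza, and between 63.1 and 99.4 in the 22Rv1 Control libraries.

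Enzalutamide against Ctrl asked what blocking androgen action did to the family, and it moved the members in opposite directions. UGT2B15 and UGT2B17 rose, UGT2B28 fell, and UGT2B11 was not called. UGT2B15 was at 14.1, 12.5 and 11.5 CPM in the Ctrl libraries and at 31.1, 42.0 and 39.1 CPM with Enza. The groups did not overlap, and the change was 2.94-fold (log2 1.55 ± 0.17, adjusted p = 2.89e-07). UGT2B17, its closest copy, went from 4.0, 4.17 and 3.35 CPM to 5.14, 8.39 and 7.21 CPM. Every Enza library was above every Ctrl library (log2 0.85 ± 0.19, adjusted p = 0.00246), although the adjusted p was 0.0565 when only these groups entered the fit.

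UGT2B28 was the member that fell with enzalutamide. Its levels were 2.57, 2.54 and 2.13 CPM in Ctrl and 0.808, 0.655 and 0.737 CPM with Enza, 3.31-fold lower with no overlap (log2 −1.73 ± 0.27, adjusted p = 4.35e-05). UGT2B11, whose coding sequence is the most like that of UGT2B28, was at 3.39, 3.41 and 2.93 CPM in Ctrl and 3.43, 3.75 and 3.14 CPM with Enza. These ranges overlapped, and the 95% interval of the log2 difference ran from −0.23 to 0.39 (adjusted p = 0.772). Adding the reads of UGT2B7, UGT2B10, UGT2B11 and UGT2B28 together gave −0.22 (adjusted p = 0.371), so the fall of UGT2B28 rests on reads being assigned to the right copy. The rarer UGT2B10 had 10, 7 and 10 reads in Ctrl and 30, 24 and 20 reads with Enza (fitted log2 difference 1.56 ± 0.4). UGT2B7 had 3, 9 and 5 reads in Ctrl and 12, 9 and 10 with Enza, a ratio of 1.98 (95% exact interval 1.06 to 3.82, covering counting error only). Of UGT2B11, UGT2B15, UGT2B17 and UGT2B28, 3 were called, where 16.1% of all genes were, and their median log2 change was 0.46 against 0.06 over all genes. Measured on bulk RNA, fewer cells that express a gene and less of its RNA per cell cannot be told apart. Summed liver markers (ALB, APOA1, TTR and SERPINA1) were 7.0 to 8.34 CPM in Ctrl and 10 to 11.4 CPM with Enza, and their part in the result was not tested.

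NU7441 lowered UGT2B11, UGT2B15, UGT2B17 and UGT2B28. UGT2B28 was at 0.64, 0.163 and 0.736 CPM with NU7441 against 2.13 to 2.57 CPM in Ctrl, a 4.68-fold difference (log2 −2.23 ± 0.28, adjusted p = 5.65e-05). UGT2B11 was at 1.13, 0.762 and 1.13 CPM (log2 −1.68 ± 0.18, adjusted p = 1.08e-05). For both genes all NU7441 libraries lay below all Ctrl libraries. UGT2B15 was at 5.31, 2.8 and 6.74 CPM (2.57-fold lower, adjusted p = 0.00017) and UGT2B17 at 1.82, 1.06 and 1.67 CPM (2.53-fold lower, adjusted p = 0.000735), again without overlap. NU7441 2 was the lowest of its group for each of the 4 genes. Without it the log2 changes were −1.83 for UGT2B28, −1.54 for UGT2B11, −1.1 for UGT2B15 and −1.15 for UGT2B17, all still called. UGT2B10, with 5, 3 and 3 reads against 10, 7 and 10, had a fitted difference of −1.32 ± 0.55. The 4 of 4 members called stood beside 3.39% of all genes, and their median was −1.52 against 0.02.

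CC-223 lowered UGT2B11, UGT2B15, UGT2B17 and UGT2B28. UGT2B15 was at 3.37, 3.0 and 3.24 CPM, 4.0-fold below Ctrl (log2 −2.0 ± 0.2, adjusted p = 9.41e-08). UGT2B17 was at 1.56, 1.22 and 1.4 CPM (log2 −1.47 ± 0.22, adjusted p = 2.48e-05). The replicates of both androgen-conjugating enzymes were tight and did not overlap with Ctrl. UGT2B11 was at 1.49, 1.53 and 1.32 CPM (log2 −1.18 ± 0.17, adjusted p = 2.18e-05) and UGT2B28 at 1.2, 1.16 and 1.35 CPM (log2 −0.98 ± 0.25, adjusted p = 0.00556). UGT2B10 had 0, 0 and 1 reads against 27 in the Ctrl group, a ratio of 0.0414 with an exact 95% interval of 0.00101 to 0.251. UGT2B7 had 0 reads in all 3 CC-223 libraries against 17 in Ctrl, which makes it at least 5.07-fold lower with a floor of 3 reads over the group. The 4 of 4 members called stood beside 23.9% of all genes, with medians of −1.33 and 0.07.

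CC-115 gave another pattern from NU7441 and CC-223: UGT2B11 rose and UGT2B15 fell. UGT2B11 was at 6.95, 6.02 and 7.79 CPM against 2.93 to 3.41 CPM in Ctrl (2.06-fold, log2 1.05 ± 0.15, adjusted p = 1.95e-06). This was the highest level of UGT2B11 in any of the 10 groups. UGT2B15 was at 9.42, 8.26 and 9.03 CPM (log2 −0.56 ± 0.18, adjusted p = 0.01), below every Ctrl library, but the call was lost without Ctrl 1 (log2 −0.45, adjusted p = 0.0652) or without CC-115 2 (log2 −0.48, adjusted p = 0.0549). UGT2B17 at 3.15, 3.73 and 4.11 CPM and UGT2B28 at 2.5, 2.57 and 2.97 CPM overlapped with Ctrl. Their log2 differences were −0.11 (95% interval −0.49 to 0.27) and 0.11 (−0.34 to 0.56). With copies added together, UGT2B17 took the value −0.44 (adjusted p = 0.0338) of its sum and UGT2B28 the value 0.67 (adjusted p = 0.000799), both called. UGT2B10 had 7, 12 and 16 reads, and UGT2B7 had 2, 0 and 0 reads, a ratio to Ctrl of 0.113 (exact 95% interval 0.0126 to 0.475). The 2 of 4 members called compare with 53.6% of all genes, so the family stood close to the background here.

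Marker levels moved with the inhibitors as well. The summed prostate luminal markers were 4210 to 4360 CPM in Ctrl, 4760 to 5190 with NU7441, 7310 to 7410 with CC-223, 9960 to 10300 with CC-115 and 1890 to 2240 with Enza. Summed liver markers were 5.22 to 6.77 CPM with NU7441, 4.85 to 6.55 with CC-223 and 1.72 to 1.98 with CC-115. The 7 stromal, immune and endothelial markers summed to 5.19 to 6.41 CPM in Ctrl, with 2 of them at 0, to 4.6 to 7.32 CPM with the inhibitors and to 5.27 to 13.4 CPM with Enza. Their part in the UGT2B results was not tested.

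**Figure D2:**
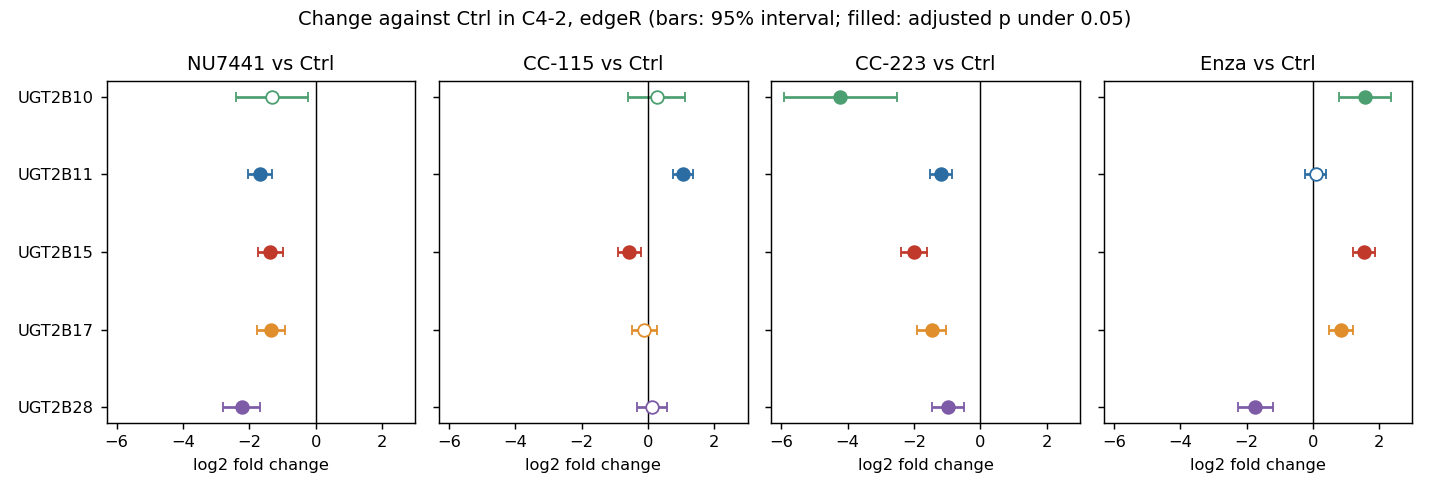
Log2 change of each tested member against Ctrl in C4-2 cells for NU7441, CC-115, CC-223 and Enza, with bars for the 95% interval and filled points for adjusted p below 0.05 (UGT2B10, admitted by its highest groups, is a description). UGT2B15 stood at −1.36, −0.56, −2.0 and 1.55, and UGT2B11 at −1.68, 1.05, −1.18 and 0.08.

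At the matched dose and time the 3 kinase inhibitors were also compared directly, in 3 pairs, each with p-values adjusted over all genes. UGT2B11, UGT2B15, UGT2B17 and UGT2B28 were all higher with CC-115 than with NU7441, where 49.0% of all genes were called. The log2 differences were 2.73 ± 0.17 for UGT2B11 (6.64-fold), 2.33 ± 0.27 for UGT2B28, 1.23 ± 0.21 for UGT2B17 and 0.8 ± 0.19 for UGT2B15, with adjusted p from 1.39e-12 to 0.000841. The UGT2B15 call was lost when only these groups were fitted (adjusted p = 0.076). The 4 members were also higher with CC-115 than with CC-223, beside 43.1% of all genes called. UGT2B11 differed by 2.23 ± 0.17, UGT2B15 by 1.44 ± 0.2, UGT2B17 by 1.36 ± 0.22 and UGT2B28 by 1.08 ± 0.25 (adjusted p from 5.44e-11 to 0.000844). NU7441 against CC-223 separated the family less, with 1 of 4 members called beside 7.31% of all genes. UGT2B28 was 2.38-fold lower with NU7441 (log2 −1.25 ± 0.3, adjusted p = 0.00904), a call lost without CC-223 3 (adjusted p = 0.0512). UGT2B15 was at a log2 difference of 0.64 (95% interval 0.24 to 1.04, adjusted p = 0.0585) and UGT2B17 at 0.14 (−0.34 to 0.61), intervals that leave room for a difference between these compounds. UGT2B11 was at −0.51 ± 0.2 (adjusted p = 0.126), and its sum with the other copies at −0.69 (adjusted p = 0.0265).

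The next comparisons asked what each inhibitor did when androgen action was already blocked. NU7441+Enza held UGT2B11 at 1.97, 1.36 and 1.97 CPM against 3.43, 3.75 and 3.14 CPM with Enza alone (log2 −0.95 ± 0.17, adjusted p = 0.0108). This was the member called, where 0.381% of all genes were called, and it was lost without NU7441+Enza 1 (adjusted p = 0.0511), without NU7441+Enza 2 (0.103) and when only these groups were fitted (0.34). UGT2B15 was at 24.1, 23.9 and 23.4 CPM, below every Enza library, with a log2 difference of −0.65 ± 0.17 that missed the threshold (adjusted p = 0.0943). UGT2B28 (−0.92 ± 0.33) and UGT2B17 (−0.38 ± 0.18) were not called either, and the median of the 4 members was −0.78 against −0.01 over all genes. The sum that holds UGT2B28 was called (−1.04, adjusted p = 0.00605). UGT2B10 had 7, 9 and 14 reads against 30, 24 and 20. With the libraries that stood apart (Enza 1 and CC-115+Enza 1) left out, UGT2B11 (−0.98), UGT2B15 (−0.78, adjusted p = 0.011) and UGT2B17 (−0.56, adjusted p = 0.00995) were called.

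CC-223+Enza lowered UGT2B11, UGT2B15 and UGT2B28 below Enza alone and left UGT2B17 uncalled. UGT2B11 was at 0.718, 0.901 and 0.939 CPM, 4.08-fold lower (log2 −2.03 ± 0.18, adjusted p = 2.9e-08). UGT2B15 was at 19.9, 20.7 and 20.1 CPM (log2 −0.9 ± 0.17, adjusted p = 0.000288). Both groups of libraries were clear of the Enza group. UGT2B28 was at 0.359, 0.265 and 0.156 CPM (log2 −1.49 ± 0.35, adjusted p = 0.00219), and UGT2B10 had 6, 2 and 1 reads against 30, 24 and 20 (fitted difference −3.35 ± 0.48). UGT2B17, at 8.48, 7.47 and 7.82 CPM against 5.14 to 8.39 CPM, had a log2 difference of 0.17 (95% interval −0.17 to 0.52). With the reads of near-identical copies added together, the value entered for UGT2B17 became −0.67 (adjusted p = 0.00357), since UGT2B15 carried most of those reads. The 3 of 4 members called stood beside 28.0% of all genes, with medians of −1.2 and 0.02.

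CC-115+Enza moved UGT2B15 and UGT2B17 apart. UGT2B17 was at 7.68, 12.2 and 12.2 CPM against 5.14, 8.39 and 7.21 CPM with Enza alone (log2 0.58 ± 0.18, adjusted p = 0.00664). The ranges overlapped through CC-115+Enza 1, and the call was lost when only these groups were fitted (adjusted p = 0.0774). UGT2B15 was at 21.6, 30 and 29.1 CPM, below the Enza libraries (log2 −0.52 ± 0.17, adjusted p = 0.00975), a call lost without Enza 2 (0.0856), without CC-115+Enza 1 (0.0583) and in the fit of these groups alone (0.0619). UGT2B11 at 2.35, 2.9 and 2.86 CPM was also lower (log2 −0.39 ± 0.16, adjusted p = 0.0374) but lost its call under 12 alternatives. UGT2B28 (−0.65 ± 0.31) was not called. UGT2B10 had 19, 48 and 31 reads against 30, 24 and 20. The 3 of 4 members called stood beside 58.7% of all genes, with medians of −0.45 and 0.03. With copies added together UGT2B15 and UGT2B17 took the value −0.28 (adjusted p = 0.145), not called, and the sum that holds UGT2B28 was called (−0.44, adjusted p = 0.023).

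Read the other way, enzalutamide raised UGT2B15 and UGT2B17 on top of every inhibitor. With NU7441 present the log2 changes were 2.27 ± 0.19 (4.82-fold) and 1.81 ± 0.21, with CC-115 they were 1.59 ± 0.18 and 1.54 ± 0.18, and with CC-223 they were 2.65 ± 0.2 (6.28-fold) and 2.5 ± 0.21, with adjusted p from 7.42e-11 to 5.12e-07. No library with an inhibitor alone overlapped with those of the same inhibitor plus Enza for these genes. UGT2B28 fell by 2.48 ± 0.27 on the log2 scale on CC-115 and by 2.25 ± 0.33 on CC-223, but was at −0.42 ± 0.34 (adjusted p = 0.696) on NU7441, where it was already low. The sum that holds UGT2B28 had the opposite sign on NU7441 (0.61, adjusted p = 0.0528), not called. For UGT2B11 the Enza change was negative on CC-115 (log2 −1.36 ± 0.15, adjusted p = 1.61e-07) and on CC-223 (−0.77 ± 0.2, adjusted p = 0.00802), and positive on NU7441 (0.81 ± 0.19, adjusted p = 0.0059). The CC-223 call was lost without CC-223+Enza 1 (0.0782), and the NU7441 call without NU7441 2 (0.0774), NU7441+Enza 1 (0.0637) or NU7441+Enza 3 (0.0563) and with copies added together (0.61, adjusted p = 0.0528). Fitted Enza differences of UGT2B10 were 1.31 ± 0.54 on NU7441, 1.23 ± 0.37 on CC-115 and 2.45 ± 1.09 on CC-223, where its sum with the other copies was at −1.33 on CC-115 and −1.13 on CC-223. Members called were 3 of 4 on NU7441 beside 6.08% of all genes, 4 of 4 on CC-115 beside 23.8%, and 4 of 4 on CC-223 beside 12.4%.

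**Figure D3:**
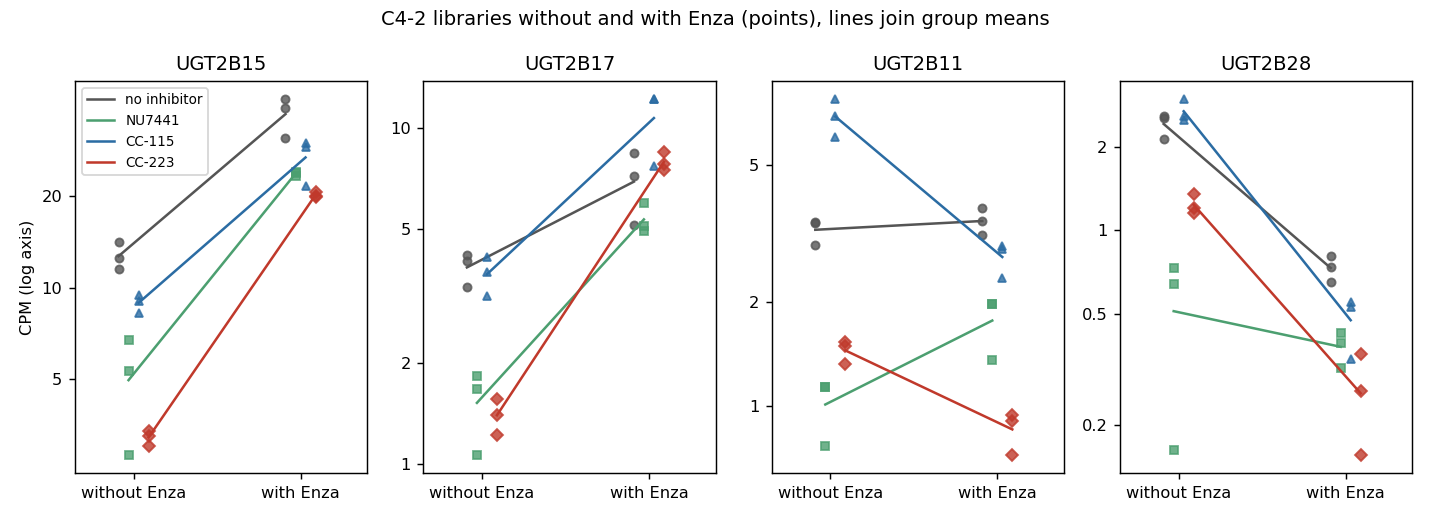
Levels of UGT2B15, UGT2B17, UGT2B11 and UGT2B28 (CPM, log axes) in C4-2 libraries without and with Enza, with points for libraries and lines that join the group means for no inhibitor, NU7441, CC-115 and CC-223. The UGT2B15 lines all climb, from 12.7 to 37.4 CPM with no inhibitor and from 3.2 to 20.3 CPM with CC-223, while UGT2B11 goes from 6.92 to 2.7 CPM with CC-115 and from 1.01 to 1.77 CPM with NU7441.

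Whether the effect of Enza itself differed with an inhibitor was tested by the interaction, the Enza change with the inhibitor minus the Enza change without it. For CC-115 the interaction was called for UGT2B11 (log2 −1.44 ± 0.22, adjusted p = 0.000207), beside 3.27% of all genes. UGT2B17 was at 0.69 ± 0.26 (adjusted p = 0.163) and reached the threshold without Enza 1 and CC-115+Enza 1 (adjusted p = 0.0168), and UGT2B15 was at 0.04 (95% interval −0.44 to 0.52). UGT2B28 was at −0.76 (adjusted p = 0.314), and the sum that holds it was called (−1.11, adjusted p = 0.00466). For CC-223 it was called for UGT2B17 (log2 1.65 ± 0.28, adjusted p = 0.00313), beside 0.376% of all genes. UGT2B15 was close to the threshold (1.1 ± 0.26, adjusted p = 0.0588, and 0.0262 for its sum with UGT2B17) and UGT2B11 was not called (−0.85 ± 0.25, adjusted p = 0.205). For NU7441 no gene was called by edgeR (0.0%) or by DESeq2, with 1548 genes at an unadjusted p below 0.05 in edgeR, among them 4 members. Their interaction values were 0.73 for UGT2B11, 0.71 for UGT2B15, 0.96 for UGT2B17 and 1.31 for UGT2B28 (adjusted p = 0.692 each). The Enza comparisons and the interactions share libraries, so their values are set side by side and no likeness between them was measured.

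The balance of UGT2B15 to UGT2B17 varied with treatment. UGT2B15 reads per UGT2B17 read were 3.32 ± 0.278 (SD, n = 3) in Ctrl, 2.31 ± 0.148 with CC-223, 2.47 ± 0.454 with CC-115 and 3.2 ± 0.737 with NU7441. With Enza the ratio was 5.5 ± 0.525, with NU7441+Enza 4.5 ± 0.51, with CC-115+Enza 2.56 ± 0.222 and with CC-223+Enza 2.57 ± 0.212. Enza alone therefore shifted the pair towards UGT2B15, and the combinations with CC-115 or CC-223 had mean ratios below Ctrl. In 22Rv1 cells the ratio was 29.2 ± 4.31 in Control, and 27.6 and 12 in the CC-115 libraries. These ratios are given as descriptions, with no test.

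**Figure D4:**
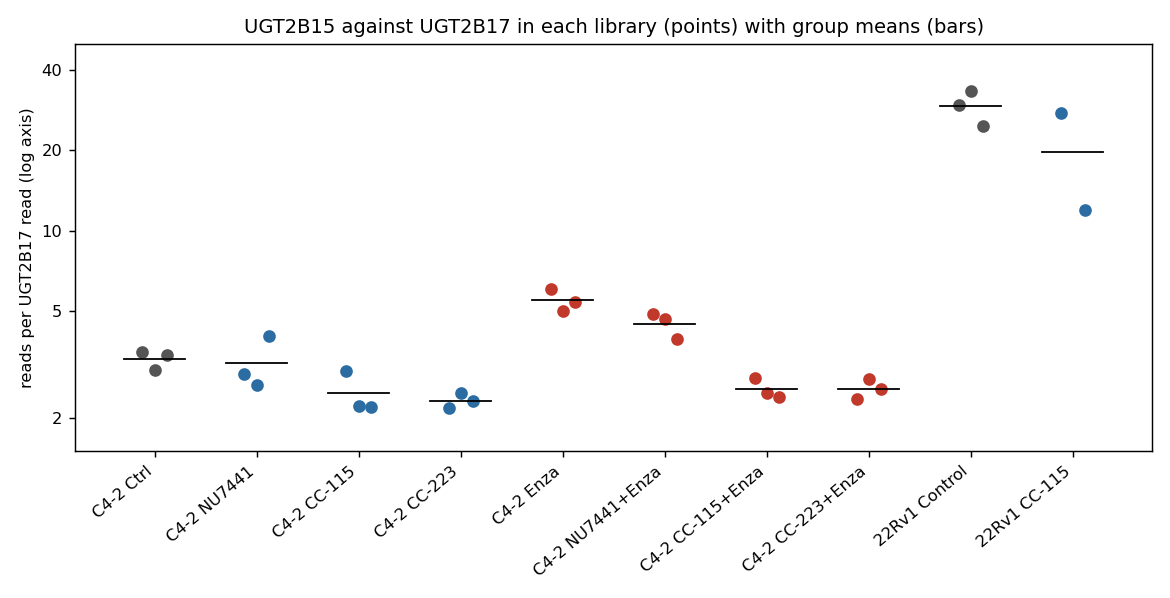
UGT2B15 reads per UGT2B17 read (log axis) in each library of the 10 groups (points), with bars for group means. The ratio was 5.5 on average with Enza against 3.32 in Ctrl, and lay between 24.7 and 33.3 in the 22Rv1 Control libraries.

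In 22Rv1 cells CC-115 lowered UGT2B15, from 90.7, 99.4 and 63.1 CPM in Control to 61.5 and 31.4 CPM. Both treated libraries lay below all Control libraries, the lowest of which was close to the higher treated one (log2 −0.84 ± 0.26, adjusted p = 0.0359). The call was lost without Control 1 (adjusted p = 0.0832), Control 2 (0.0969) or CC-115 2 (log2 −0.49, adjusted p = 0.163), so it rested on few libraries. UGT2B11 was at 2.02, 2.24 and 1.22 CPM in Control and at 1.39 and 0.481 CPM with CC-115 (−0.91 ± 0.42, adjusted p = 0.117), and it was called without CC-115 1 (−1.81, adjusted p = 0.0212) or without Control 3 (−1.07, adjusted p = 0.0493). UGT2B17, at 3.06, 2.98 and 2.55 against 2.23 and 2.62 CPM, was at −0.2 (95% interval −0.63 to 0.22, while its sum with UGT2B15 was called at −0.81, adjusted p = 0.0339), and UGT2B10, at 425, 458 and 237 reads against 412 and 187, was at −0.16 (−0.62 to 0.3). UGT2B7 had 14, 23 and 12 reads against 14 and 8. The 1 of 5 members called stood beside 40.9% of all genes. Summed liver markers were also lower, at 763 to 965 CPM in Control and 214 to 370 CPM with CC-115, mostly ALB, and summed stromal, immune and endothelial markers went from 2.45 to 4.82 CPM to 10 to 15.6 CPM. Their part in the result was not tested.

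The CC-115 effect on UGT2B11 differed between the lines. The C4-2 effect minus the 22Rv1 effect was 1.88 ± 0.39 on the log2 scale (adjusted p = 0.00285), and it was called in every fit that left out a library, with values from 1.5 (adjusted p = 0.00829) without 22Rv1 CC-115 2 to 2.85 (adjusted p = 0.00025) without 22Rv1 CC-115 1. With copies added together, UGT2B7, UGT2B10, UGT2B11 and UGT2B28 all took the value 0.85 (adjusted p = 0.0264) of their sum, called. For UGT2B15 the difference was 0.22 (95% interval −0.37 to 0.81), for UGT2B17 0.05 (−0.41 to 0.52) and for UGT2B10 0.36 (−0.56 to 1.28). UGT2B11 was the member called, where 27.5% of all genes were. UGT2B15 was also called without 22Rv1 CC-115 1 (0.73, adjusted p = 0.0333), and UGT2B7, from few reads, without C4-2 CC-115 1.

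Between the untreated lines UGT2B11, UGT2B15 and UGT2B17 were each called, beside 77.3% of all genes, so a difference between lines was the common case. Each line has its own count table. Wherever the lines are compared, cell line and any batch that goes with its table therefore cannot be told apart. UGT2B7 and UGT2B10 passed the filter through 22Rv1 and UGT2B28 through C4-2, so their differences are given as descriptions. UGT2B15 was 6.35-fold lower in C4-2 than in 22Rv1 (log2 −2.67 ± 0.21, adjusted p = 7.8e-08). UGT2B10 was 46.7-fold lower (log2 −5.55 ± 0.26), at 0.204 to 0.276 CPM in C4-2 and 9.6 to 14.1 CPM in 22Rv1. UGT2B7 was at −1.71 ± 0.48. In the other direction, UGT2B28 was 13.1-fold higher in C4-2 (3.71 ± 0.24), UGT2B11 1.82-fold higher (0.87 ± 0.24, adjusted p = 0.0043) and UGT2B17 1.39-fold higher (0.48 ± 0.15, adjusted p = 0.0113). The ranges of the untreated lines did not overlap for any of the 6 members. With copies added together the values entered for UGT2B11 and UGT2B28 were −1.23 and that for UGT2B17 −2.33, so the higher C4-2 level of these copies holds for the separate counts alone. Other copies weighed on these sums, UGT2B10 with 1120 reads and UGT2B15 with 7753 reads in 22Rv1 Control. Of the liver markers, ALB was at 961, 871 and 759 CPM in 22Rv1 Control and at most 2.13 CPM in C4-2. The other markers did not share this difference. SERPINA1 was near 0 in both lines. Over all libraries of a line, the median of APOA1 was 1.18 CPM in 22Rv1 and 0.909 CPM in C4-2. For TTR it was 2.88 CPM in 22Rv1 and 4.75 CPM in C4-2. Any link of ALB to the UGT2B levels was not tested.

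Over the 10 groups each member had its own order of levels. UGT2B15 ran from 84.4 ± 18.9 CPM (SD, n = 3) in 22Rv1 Control, 46.5 in 22Rv1 CC-115 and 37.4 ± 5.65 with Enza down to 12.7 ± 1.3 in Ctrl, 4.95 ± 1.99 with NU7441 and 3.2 ± 0.189 with CC-223. The ranges of 22Rv1 CC-115 and Enza overlapped, as did those of NU7441 and CC-223. UGT2B17 was highest with CC-115+Enza (10.7 ± 2.59), and its range overlapped with that of CC-223+Enza (7.92 ± 0.513), which overlapped with Enza (6.91 ± 1.64), and Enza with NU7441+Enza (5.33 ± 0.564), which was clear of Ctrl. UGT2B11 was highest with CC-115 (6.92 ± 0.884), clear of Enza (3.44 ± 0.305) and Ctrl (3.25 ± 0.273), and its lowest groups were NU7441, 22Rv1 CC-115 and CC-223+Enza (0.852 ± 0.118), which overlapped. UGT2B28 was highest with CC-115 (2.68 ± 0.251) and in Ctrl (2.41 ± 0.246), which overlapped, followed by CC-223 (1.23 ± 0.1), and no library of the other groups was above 0.808 CPM. UGT2B10 in C4-2 stayed under 1 CPM on average in every group, and UGT2B7 was at most 0.315 CPM there, with Enza.

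Summed over the family, the level per kilobase was 10.9 ± 1.01 CPM (SD, n = 3) in Ctrl. Enza brought it to 23.7 ± 3.38, CC-115 to 10.6 ± 0.794, NU7441 to 3.89 ± 1.4 and CC-223 to 3.51 ± 0.178. It was 15.2 ± 0.271 with NU7441+Enza, 19.9 ± 3.81 with CC-115+Enza and 14.1 ± 0.156 with CC-223+Enza. CC-115 thus left the sum near that of Ctrl while its makeup shifted. UGT2B15 made up 56.3% of the sum in Ctrl, 40.4% with CC-115, 43.9% with CC-223, 75.8% with Enza and 82.0% in 22Rv1 Control. UGT2B11 held 12.8% in Ctrl, 27.7% with CC-115 and 2.58% with CC-223+Enza. UGT2B28 went from 12.1% in Ctrl to between 1.0% and 1.73% in the 4 groups with Enza. UGT2B10, at most 1.84% in C4-2, held 12.9% in 22Rv1 Control and 19.0% in 22Rv1 CC-115.

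**Figure D5:**
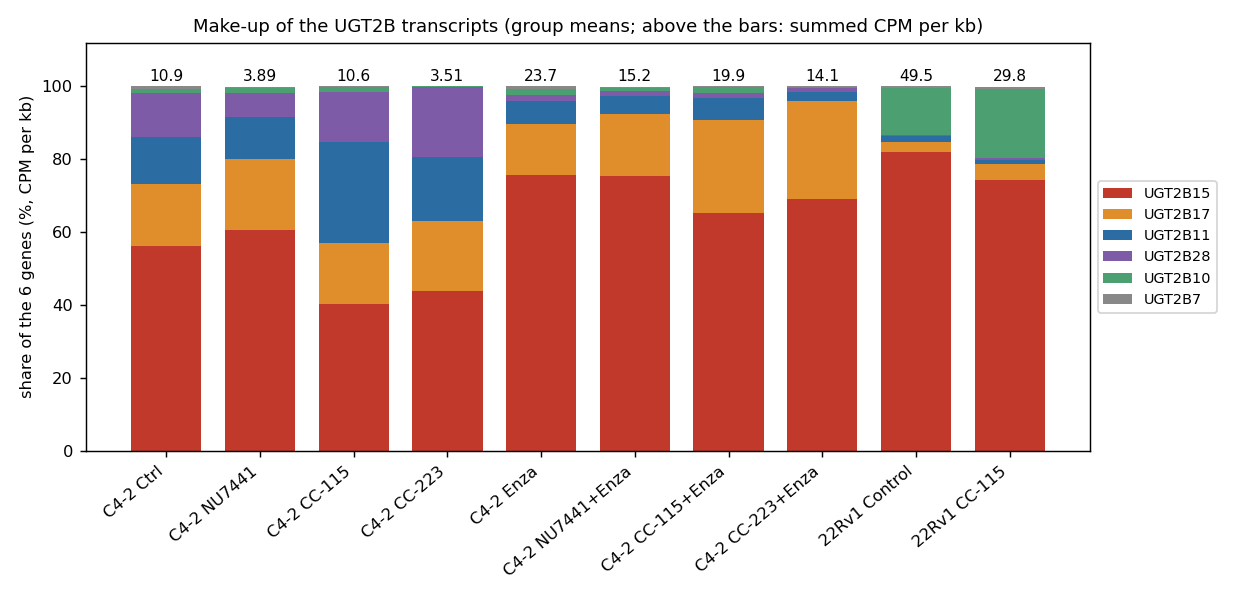
Share of each member (percent of the family's summed CPM per kilobase, mean over libraries) in the 10 groups, as stacked bars with the family's summed level above each. UGT2B15 took 56.3% in Ctrl, 40.4% with CC-115 and 75.8% with Enza, and UGT2B10 took 12.9% in 22Rv1 Control.

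Glucuronidation also needs its sugar donor, so 6 genes were followed. They make UDP-glucuronic acid, cleave glucuronides or belong to the SLC35 family of transporters, of which not all are known to carry UDP-glucuronic acid. CC-115 raised 2 and lowered 1 (median 0.15), CC-223 raised 1 and lowered 1 (−0.18), NU7441 raised 1 (−0.2) and Enza lowered 1 (−0.18). The shares of all genes called in these comparisons, against which this and the next lists are to be read, were 53.6%, 23.9%, 3.39% and 16.1%, so 3 of 6 with CC-115 was near the background. SLC35D2, a nucleotide sugar transporter, rose with NU7441 (0.65 ± 0.15, adjusted p = 0.0176, but 0.336 without NU7441 2 and 0.062 to 0.0913 without a Ctrl library), CC-115 (1.66 ± 0.15) and CC-223 (0.81 ± 0.15). SLC35D1, which carries UDP-glucuronic acid into the endoplasmic reticulum, fell with CC-115 (−1.37 ± 0.37, adjusted p = 0.00276), CC-223 (−1.07 ± 0.37) and Enza (−1.17 ± 0.37), from a low Ctrl level of 0.666 CPM. The CC-223 call was lost without Ctrl 1 or 2 or CC-223 1 or 3 (adjusted p = 0.0757 to 0.134), and the Enza call without Ctrl 1 or 2 or Enza 1 or 3 (0.0725 to 0.149). In 22Rv1 cells CC-115 raised 2 and lowered 4 of the 6 (median −0.83), beside 40.9% of all genes called. UGDH, which makes UDP-glucuronic acid, fell there by 1.37 ± 0.13 on the log2 scale (adjusted p = 0.000343), and UGP2, which makes its precursor, fell by 1.03. Between the untreated lines 5 of the 6 were lower in C4-2, beside 77.3% of all genes called, SLC35D1 most (log2 −5.86).

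Of 13 genes that supply androgens, 9 were measured in C4-2. CC-115 raised 3 and lowered 5 (median −0.77), CC-223 raised 1 and lowered 1 (−0.25), and Enza raised 2 and lowered 2 (−0.09). The 8 of 9 called with CC-115 stood beside 53.6% of all genes, the 2 of 9 with CC-223 beside 23.9% and the 4 of 9 with Enza beside 16.1%. With NU7441, edgeR and DESeq2 each called 0, and 1 had an unadjusted p below 0.05 in edgeR. HSD3B1, which starts the conversion of adrenal precursors, fell by 3.58 ± 0.46 on the log2 scale with CC-115 (adjusted p = 3.07e-07) and rose with Enza (1.24 ± 0.28, adjusted p = 0.00306). AKR1C3, which makes testosterone, had a fitted difference of 2.74 ± 0.44 with CC-115 but stayed at 0.898 CPM. HSD17B3, which also makes testosterone, had 0 reads in Ctrl and 46 with CC-115, at least 14.7-fold higher. AKR1C3 and HSD17B3 passed the filter on low counts through the groups with CC-115, so both are descriptions with no test. The counts called above include them. HSD17B3 was the gene raised with CC-223 (9 reads) and 1 of the 2 raised with Enza (8 reads). In 22Rv1 cells CC-115 raised 2 and lowered 4 of 8 measured (median −0.32), beside 40.9% of all genes. The genes raised there include HSD17B3, with 13 reads in Control and 27 with CC-115. It passed the filter through the CC-115 group, so its difference in 22Rv1 is a description with no test. AKR1C3 was at 84.0 CPM in untreated 22Rv1 and 0.127 CPM in untreated C4-2 (log2 −9.25 ± 0.22).

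The other genes of androgen inactivation were sparse in these cells, with 5 of 12 measured in C4-2. CC-115 lowered 1 of them, the sulfotransferase SULT2B1 (log2 −1.55 ± 0.24, adjusted p = 5.41e-06), CC-223 raised 1, CYP3A43 (1.6 ± 0.46, adjusted p = 0.0117), a call lost without Ctrl 2 (0.0937) or CC-223 1 (0.0588). With NU7441, 0 were called by edgeR or DESeq2 and 0 had an unadjusted p below 0.05, while with Enza edgeR called 0, with 2 at an unadjusted p below 0.05, and DESeq2 called 1. In 22Rv1 cells HSD17B4, an enzyme of peroxisomal fatty acid and steroid oxidation, fell with CC-115 (−1.63 ± 0.17, adjusted p = 0.000406), 1 of 6 measured, beside 40.9% of all genes. Between the untreated lines, of 8 in the fit, 5 were higher in C4-2 and 3 lower, beside 77.3% of all genes called, with AKR1C1 (−9.22) and AKR1C2 (−8.79), which reduce dihydrotestosterone and other steroids, the most. AKR1C1 and AKR1C2, with 1 and 5 reads in untreated C4-2, passed the filter through 22Rv1. CYP3A43 had 2 reads in untreated 22Rv1 and passed through C4-2. The line differences of these genes are descriptions with no test.

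Of 14 transcription factors known for UGT2B genes, 9 were measured in C4-2. CC-115 raised 2 and lowered 5 (median −0.53), CC-223 raised 2 and lowered 2 (−0.21), and NU7441 (−0.14) and Enza (−0.16) each raised 1. These 7, 4, 1 and 1 of 9 stood beside 53.6%, 23.9%, 3.39% and 16.1% of all genes. PPARA, a lipid-sensing nuclear receptor, rose with CC-115 (1.11 ± 0.08) and CC-223 (0.42 ± 0.08) and, with NU7441, by 0.4 ± 0.08, a call lost without NU7441 2 (adjusted p = 0.105) or any Ctrl library. VDR, the vitamin D receptor, fell with CC-115 in both lines (−2.33 ± 0.12 in C4-2 and −1.32 ± 0.19 in 22Rv1) and with CC-223 (−1.01 ± 0.12). CDX2, an intestinal homeobox factor, rose with Enza (2.12 ± 0.37, adjusted p = 0.000175) from 0.409 to 1.79 CPM. The lines differed in factors of liver genes: HNF4A had 0 reads in untreated C4-2 and 346 in untreated 22Rv1, at least 140.0-fold lower, and NR1H4, the bile acid receptor, 0 and 309 reads, at least 125.0-fold lower. Of the 11 that entered the fit of both lines, 5 were higher and 4 lower in C4-2, beside 77.3% of all genes called. These counts include HNF4A and NR1H4, which passed the filter through 22Rv1. They also include CDX2, with 0 reads in 22Rv1, which passed through C4-2. The line differences of these genes are descriptions with no test.

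Other UGT2 features of the locus were low. UGT2B4, a bile acid and steroid enzyme, was at 0.276 CPM in Ctrl. It fell with NU7441 (log2 −2.56 ± 0.51, adjusted p = 0.00581, but 0.0811 without NU7441 2), beside 3.39% of all genes called. With CC-115 it was at 0.648 CPM (fitted difference 1.17 ± 0.33). The pseudogene UGT2B27P had 13 reads in Ctrl and 46 with CC-115 (fitted difference 1.68 ± 0.56, and 1.25 without Ctrl 2). UGT2B4 had its highest C4-2 level with CC-115, and UGT2B27P with CC-115+Enza followed by CC-115, which helped both genes pass the filter. Their CC-115 differences are therefore descriptions with no test. Both were higher in untreated 22Rv1 than in C4-2, by 3.71 and 2.4 on the log2 scale, and the rows for UGT2A1 and UGT2A2 held 0 reads. Of the rarer pseudogenes, UGT2B25P had 2 reads in Ctrl and 21 with CC-115, UGT2B24P 12 and 15, and UGT2B26P 6 and 0.

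Across the 8 C4-2 groups, Pearson correlations of mean log2 CPM describe which genes followed each member, over 11299 protein-coding genes and with no test. Each of the 8 points is a mean of 3 libraries. UGT2B15 was most like ST6GALNAC4 (0.949), MED26 (0.941) and SIAH1 (0.924), and UGT2B17 was like CYTH3 (0.932) and UNK (0.915). UGT2B11 was like COPS5 (0.949) and RNASEH1 (0.949), UGT2B28 was like MCPH1 (0.964) and RIOK2 (0.942), and UGT2B10 most like NPLOC4 (0.984), EN2 (0.978) and SLC3A2 (0.977). Among the members, UGT2B15 and UGT2B17 were at 0.94 and UGT2B11 and UGT2B28 at 0.74, the pairs that share most coding sequence, while UGT2B15 and UGT2B28 were at −0.36. The correlations did not follow coding identity throughout. UGT2B10 was at 0.76 with UGT2B15 (84.9% identical) and 0.67 with UGT2B17 (85.2%). It was at 0.66 with UGT2B11 (94.8%) and 0.07 with UGT2B28 (94.1%).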

How the data were processed

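The deposited tables hold counts, whole reads per Ensembl gene that the authors made from stranded total RNA libraries. Per the submitters' processing notes the tools were STAR 2.5.2a, featureCounts 1.5.0-p3 and DESeq2 1.14.1 with genome build hg19. The sources used here do not give the strand setting, the annotation release or the treatment of reads that fit several copies. Group and replicate came from the sample labels. Members were matched by Ensembl identifier to their symbols. The members, gene lists and tests were chosen with earlier results of these data known.

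Counts were tested with edgeR 4.0.16 (limma 3.58.1, R 4.3.3), quasi-likelihood with robust dispersion, trimmed-mean (TMM) scaling, the filterByExpr filter and Benjamini-Hochberg adjustment over all genes tested, called below 0.05. The 24 C4-2 libraries, the 5 22Rv1 libraries and the 11 untreated or CC-115 libraries of both lines each had 1 fit, over 22860, 19392 and 22922 genes. Levels are CPM scaled over all 29 libraries. Each standard error is the size of the log2 change divided by the square root of its F statistic. 95% intervals are 1.96 of these standard errors, so they are approximate and too narrow where libraries are few. In 22Rv1, UGT2B11 had an interval of −1.72 to −0.09 although its unadjusted p in edgeR was 0.0615. No pair of replicates agreed within sampling noise (lowest chi-square per degree of freedom 4.01). Depth was 29580404 to 44912917 counts per library, so genes of a few reads are given with exact intervals that cover counting error only. The functions were tested on simulated counts. From each pathway list at most 2 called genes per direction with the largest change were eligible to be named, and for each member the 3 genes most like it, with an average log2 CPM of at least 1. Some genes that this rule would name are not reported here. Alternatives were median-of-ratios scaling, no or a stricter filter, DESeq2 1.42.0, removal of small and mitochondrial RNA, fits of only the groups compared, copies added together, and leaving out libraries. Sequences were read from RefSeq (GRCh38.p14) and GENCODE 29. Same-numbered libraries did not deviate together, so replicate numbers did not enter the tests.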

Additional observations from a re-analysis of the deposited data

Results flagged for a closer look

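The effect of CC-115 on UGT2B11 differed between the lines by a test of the difference itself. The log2 effect in C4-2 minus that in 22Rv1 was 1.88 ± 0.39 (adjusted p = 0.00285 by edgeR). UGT2B11 was higher in all 3 CC-115 libraries than in all 3 Ctrl libraries of C4-2, at 6.02 to 7.79 against 2.93 to 3.41 CPM. In 22Rv1 it was at 1.39 and 0.481 CPM with CC-115 against 1.22 to 2.24 CPM in Control, ranges that overlapped.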

How the results depend on the processing

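Of 97 fitted member results, over 19 comparisons and 10 to 20 alternatives each, 56 were called, and 42 of these kept their call and direction under every alternative that kept the copies separate. These counts include fits given above as descriptions only: UGT2B10 in C4-2, and UGT2B7, UGT2B10 and UGT2B28 between the lines. They and the counts below are to be read beside the share of all genes called, from 0.0% to 77.3% over the comparisons. With separate copies 0 results changed sign while called on either side, though 12 that were not called changed sign under some alternative. With copies summed, where each member takes the value of its sum (UGT2B15 with UGT2B17, and the other 4 members), 10 reversed: UGT2B10 with Enza against Ctrl (−0.22), with CC-115+Enza against CC-115 (−1.33), with CC-223+Enza against CC-223 (−1.13) and with NU7441 against CC-223 (−0.69), UGT2B17 with CC-115+Enza against Enza (−0.28) and CC-223+Enza against Enza (−0.67), UGT2B11 (−1.23), UGT2B28 (−1.23) and UGT2B17 (−2.33) between the untreated lines, and UGT2B7 for the CC-115 effect between lines (0.85). A sum mostly follows its most abundant copies, so a reversal of a rarer copy does not show that its reads were misassigned. In Ctrl, UGT2B10 had 27 reads beside 353 for UGT2B11 and 262 for UGT2B28. Among counts of members called, which here include UGT2B10, NU7441+Enza against Enza (1) became 3 with no filter, 2 with DESeq2, 0 with only the groups compared and 4 without the libraries that stood apart, and 0 to 3 when a library was left out. CC-115+Enza against Enza (3) became 0, and CC-115 against NU7441 (5) became 3, with only the groups compared. The CC-115 by Enza interaction (1) became 2 without the libraries that stood apart (1 to 2 with a library left out). The CC-223 by Enza interaction (1) became 2 with no filter, a stricter filter, DESeq2, small RNA removed or only the groups compared (1 to 2 with a library left out). NU7441 against CC-223 (1) became 2 with no filter, a stricter filter, DESeq2 or small RNA removed and 3 without the libraries that stood apart (0 to 2 with a library left out). CC-115 in 22Rv1 (1) became 2 with no filter or the replicate block (0 to 2 with a library left out), and the line difference of the CC-115 effect (1) was 1 to 2 with a library left out. The cause of these moves was not tested.

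Counts over all genes moved by more than 1.5 times for NU7441 (776, 571 to 5011 over the alternatives and 76 to 813 with a library left out), CC-223 (5456, 5017 to 9900), Enza (3679, 1053 to 4938, 1808 to 4998 with a library left out), NU7441+Enza against Enza (87, 0 to 619, 0 to 1173 with a library left out) and against NU7441 (1389, 1283 to 3632), CC-115+Enza against CC-115 (5451, 1908 to 5646, 3501 to 7792 with a library left out) and against Enza (13415, 8115 to 13808), CC-223+Enza against CC-223 (2839, 2633 to 7456) and against Enza (6398, 3863 to 8380), NU7441 against CC-223 (1672, 1376 to 5823, 877 to 1685 with a library left out), CC-115 in 22Rv1 (7925, 4902 to 8538 with a library left out) and the interactions with CC-115 (747, 166 to 1425, 388 to 1250 with a library left out), CC-223 (86, 62 to 444, 47 to 117 with a library left out) and NU7441 (0, 0 to 23). Of the calls with NU7441, 67.3% were higher with TMM scaling and 56.8% without small and mitochondrial RNA, and for the CC-223 interaction 33.7% and 51.1%. Replicate numbers showed no pairing (median correlation −0.01 over 84 same-numbered C4-2 pairs, −0.7 and 0.64 in 22Rv1). With the replicate block, UGT2B11 was called in 22Rv1 (−1.17, adjusted p = 0.0048). Depth limits UGT2B7 and UGT2B10 in C4-2.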
